A study of Mus musculus with 24 samples.

Results

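The late part of muscle differentiation was followed in C2C12 cells by fitting, for each probe set, a straight line to the log2 intensity over days 4, 6, 8 and 10. All arrays labelled with these days entered, 3 on each day, which made 12 of the 24 arrays of the series. C2C12 is a mouse myoblast line, and total RNA of its cultures was hybridised to an Affymetrix oligonucleotide array. The other 12 arrays, of days -2, -1, 0 and 2, were left out of the line and used only to describe what the same genes had done earlier. Cells of days 4 to 10 had all been kept in differentiating medium for the number of days that names the group. No group carried a treatment, genotype or added agent beyond that medium, as far as the labels say, and its composition was not given. Whether the replicates of a day were separate cultures was not stated either, so every p-value measures the spread between these samples. The line itself is a single immortalised one grown without nerve or load.

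C2C12 myoblasts leave the cell cycle in low-mitogen medium, switch on the myogenic regulators, fuse into myotubes and assemble sarcomeres. The switch itself is early and steep. What follows in a myotube is slower: sarcomere proteins are exchanged for other isoforms, the extracellular matrix is remodelled, and genes of the proliferating myoblast decline. Sarcomere isoforms are named for the fibre in which they prevail, fast or slow, although developing fibres of both kinds carry slow and cardiac forms.

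All values below are log2 intensities, or differences between them. A value under the 20th percentile of all values, 76.8, was raised to that floor, which is 6.26 on the log2 scale. A slope is given as the fitted change over the 6 days from day 4 to day 10, with its standard error from 12 arrays. Tests were limma's, 2-sided, with Benjamini-Hochberg adjustment over the 11993 probe sets fitted, and a trend was called at an adjusted p under 0.05. The fit had 10 residual degrees of freedom. A level is compared only within a probe set.

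The arrays themselves were alike in scale. Their trimmed mean intensity lay between 1500.85 and 1500.98, the 3' to 5' signal ratio of Gapdh lay between 0.764 and 0.873, and the floor took 15.6% to 24.3% of each array. The same ratio for actin lay between 1.114 and 1.172 on day 4, 1.048 and 1.148 on day 6, 1.043 and 1.129 on day 8, and 1.058 and 1.09 on day 10. Its days 4 and 10 did not overlap, and its part in the trends was not tested. Arrays of the same day correlated at 0.944 to 0.976 and arrays of different days at 0.929 to 0.980. Replicate 1 of day 4 and replicate 1 of day 8 stood farthest from the others in the first components, and counts without them are given further on. The label was checked with 7 skeletal muscle markers, whose summed linear intensity lay between 114852 and 127345 on day 4 and between 122690 and 147808 on day 10. None of the 7 had a called trend, and neither did any of the markers measured for fat, bone, blood, vessel, nerve or fibroblast cells. Lyz2 of macrophages and Thy1 of fibroblasts were at the floor on all 12 arrays, and the other markers measured were not. On day 4 the summed intensity was 14848 to 17462 for fibroblast and tendon markers and 9738 to 11936 for neural and Schwann markers. It was 3242 to 3973 for fat and 1687 to 2436 for macrophages and leukocytes. For bone and cartilage it was 629 to 1374, and for vessels 569 to 1519. In RNA of whole cultures, more cells of a kind and more RNA per cell cannot be told apart.

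Late trends were few. Of the probe sets fitted, 37 rose (0.309% of all) and 42 fell (0.35% of all) along the line. The rising ones named 35 genes and the falling ones 38, with 2 probe sets on each side naming no single gene. An unadjusted p under 0.05 was found for 1364 probe sets. The median slope of all probe sets was -0.0062 log2 units per day, and 44.9% of the slopes were above 0. Rising probe sets gained between 1.33-fold and 5.73-fold over the 6 days, with a median of 1.93-fold, and 14 of them gained at least 2-fold. Falling probe sets lost between 1.35-fold and 4.48-fold, with a median of 1.75-fold, and 16 lost at least 2-fold. The 4 daily means stood in strict order in 31 of the 37 and in 35 of the 42. Arrays of day 4 and day 10 did not overlap in any of the 79, which a call along the line nearly requires.

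The 2-day steps between neighbouring days showed little of this. From day 4 to day 6, limma called 7 probe sets (0.0584% of all), and 957 had an unadjusted p under 0.05. From day 6 to day 8 it called 0, with 868 at an unadjusted p under 0.05 and a lowest adjusted p of 0.303. From day 8 to day 10 it called 0 as well, with 650 at an unadjusted p under 0.05 and a lowest adjusted p of 0.404. Only Rrad and Mfap5 were called both as a step and as a trend, so 77 of the 79 trends, 35 rising and 42 falling, had no step called. The remaining called step probe sets were lower on day 6 than on day 4. They were 3 without a single gene name and those of Mt2, a metallothionein, and Gstm1, a glutathione transferase, which are named here after their values were seen. Mt2 fell by 0.85 ± 0.12 (n = 3 and 3, limma adjusted p = 0.0396) and was back at 13.07 on day 10 from 13.14 on day 4. Its slope was 0.011 per day, with an adjusted p of 0.957. Gstm1 fell by 0.75 ± 0.11 (n = 3 and 3, limma adjusted p = 0.0453) and then stayed near that level, from 12.57 on day 6 to 12.55 on day 10.

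A bend in the line was called for 0 probe sets by limma's F test of the curved terms. Its lowest adjusted p was 0.092, and 694 probe sets had an unadjusted p under 0.05, among them 16 of the 79 called trends. Rrad, Mfap5, Igfbp2, Col6a3, Sox4 and Igf1r were among those 16. For the first 5 of these, the first 2 days held most of the change.

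**Figure D1:**
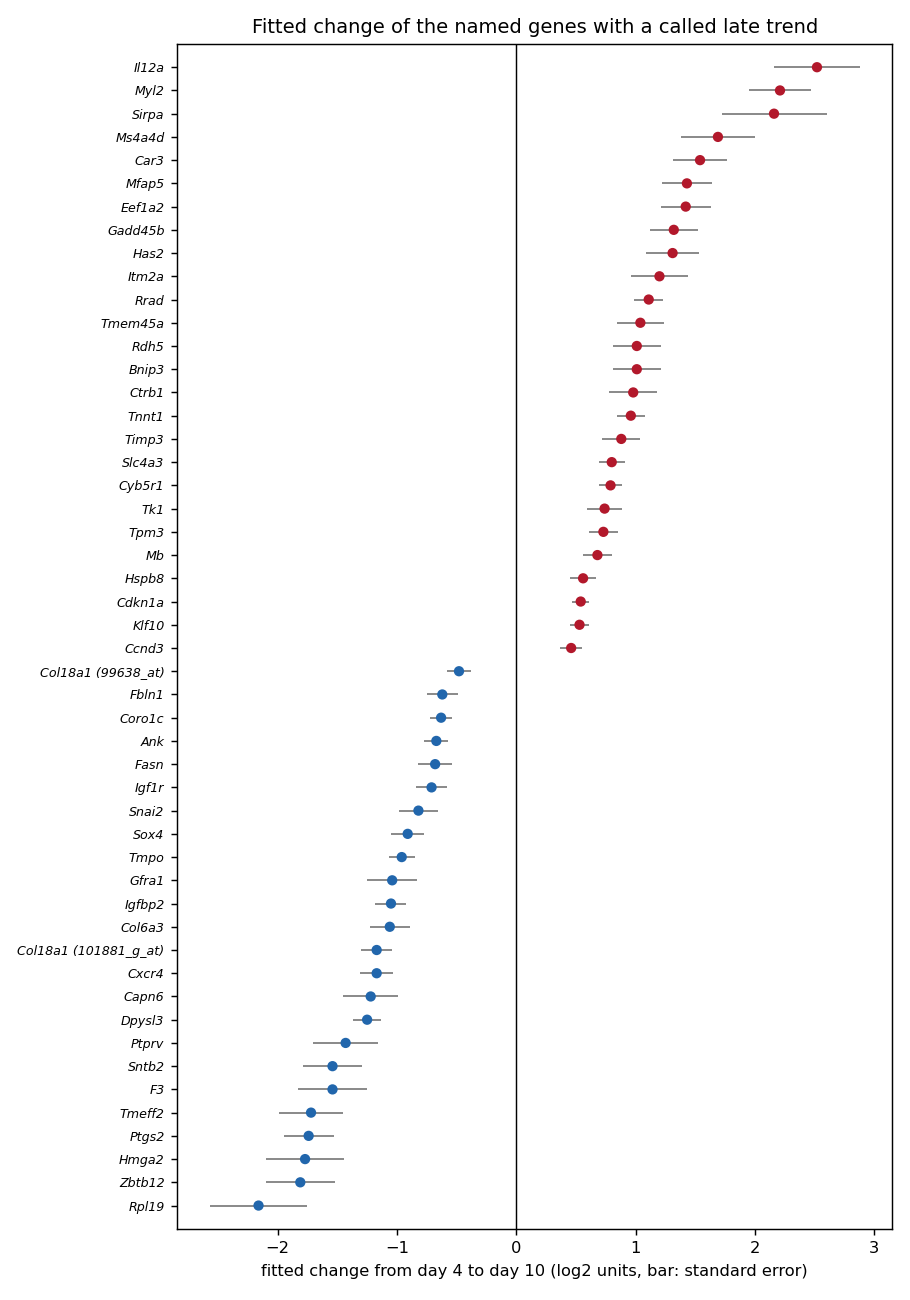
Fitted change from day 4 to day 10 in log2 units (points) with its standard error from 12 arrays (bars), for the named genes with a called late trend, rising in red and falling in blue; Col18a1 stands on the chart with more than 1 probe set, given in brackets. Il12a and Myl2 lie farthest to the right at 2.52 and 2.21, and the probe set of Rpl19 farthest to the left at -2.16; Sntb2, Tmeff2, F3 and Ptprv had arrays at the floor.

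Myl2, Tnnt1 and Tpm3 rose among the contractile genes, and so did Mb. Myl2, the regulatory myosin light chain of slow and ventricular muscle, read 8.31, 9.12 and 8.31 on day 4, 9.93, 9.79 and 9.8 on day 6, 10.10, 10.49 and 10.76 on day 8 and 10.69, 10.84 and 10.97 on day 10. Each day's arrays lay above those of the day before except between days 8 and 10, where they overlapped. The fitted gain was 2.21 ± 0.26, or 4.64-fold (adjusted p = 0.00183). Before the medium Myl2 was at or near the floor, with a day 0 mean of 6.27, and it had reached 9.6 on day 2, above its day 4 mean of 8.58.

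Tnnt1, slow skeletal troponin T, read 11.94, 12.17 and 12.29 on day 4 and 12.42, 12.47 and 12.65 on day 6 with the probe set called. It went on to 12.85, 12.91 and 13.14 on day 8 and 12.94, 13.09 and 13.12 on day 10, so only the last 2 days overlapped. The gain of 0.96 ± 0.12 (1.94-fold, adjusted p = 0.00192) had a smaller counterpart in a brighter Tnnt1 probe set, at 0.47 ± 0.11 with an adjusted p of 0.073, which missed the threshold. Tpm3, the gene of slow tropomyosin and of some non-muscle tropomyosins, read 12.84, 13.19 and 13.28 on day 4, 13.24, 13.56 and 13.49 on day 6, 13.70, 13.77 and 13.83 on day 8 and 13.78, 13.70 and 13.93 on day 10. Its days overlapped between 4 and 6 and between 8 and 10, and the gain was 0.73 ± 0.12 (1.66-fold, adjusted p = 0.017). A dim Tpm3 probe set had a slope of -0.018 (adjusted p = 0.977). Mb, the oxygen-binding myoglobin of oxidative fibres, read 12.25, 12.48 and 12.84 on day 4 and 12.90, 12.94 and 12.82 on day 6. On day 8 it read 12.86, 13.02 and 13.04, and on day 10 it read 13.15, 13.25 and 13.33. Only the day 10 arrays stood clear of every other day, and the gain was 0.68 ± 0.12 (1.60-fold, adjusted p = 0.0213).

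The list of developmental, slow and cardiac sarcomere isoforms held 14 measured genes, of which 2 rose (Myl2 and Tpm3) and 0 fell, beside 0.309% and 0.35% of all probe sets. Its median slope was 0.044 per day, and 10 of the 14 slopes were above 0. Its members did not move together. Myh7, slow myosin heavy chain, went from a mean of 13.03 on day 4 to 12.43 on day 10, a fitted change of -0.53 ± 0.11 that missed the threshold (limma adjusted p = 0.0529); its probe set is of a kind whose probes match a family of sequences. Myh3, embryonic myosin heavy chain, had a fitted change of -0.23 ± 0.12 (limma adjusted p = 0.497), and Tnni1, slow troponin I, one of 0.12 ± 0.11 (limma adjusted p = 0.735). Among the 11 fast adult isoforms measured 0 were called, with a median slope of 0.029 and 10 slopes above 0. The difference between the slow and the fast list was not tested. Their medians were 0.018 and 0.025 in the 4 arrays of a single scan day, and 0.031 and 0.038 without the 2 arrays farthest from the rest, with the fast list above the slow one in both. Fast troponin T, Tnnt3, changed by 0.32 ± 0.12 (limma adjusted p = 0.325) and the adult fast myosin gene Myh4 by 0.31 ± 0.22 (limma adjusted p = 0.646), neither past the threshold. Of the 14 genes of the Z-disc, M-band and sarcomere scaffold measured 0 were called, with a median slope of 0.029 and 12 above 0.

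Promoter sequences of Myl2 and Tnnt1 are shown because these genes carried the clearest contractile gains. They come from the RefSeq promoter table of build GRCm38.p6, whose windows span each start, most of the window lying before it, and which held 25 of the 35 rising and 34 of the 38 falling genes. Capitals mark E-boxes, the CANNTG motif that MyoD and its relatives bind as dimers, found on both strands. Myl2 has a pair of starts in the table, both on the plus strand, at chr5:122092474-122092773 and chr5:122092939-122093238, and Tnnt1 has 1 on the minus strand at chr7:4515926-4516225.
Myl2, first start: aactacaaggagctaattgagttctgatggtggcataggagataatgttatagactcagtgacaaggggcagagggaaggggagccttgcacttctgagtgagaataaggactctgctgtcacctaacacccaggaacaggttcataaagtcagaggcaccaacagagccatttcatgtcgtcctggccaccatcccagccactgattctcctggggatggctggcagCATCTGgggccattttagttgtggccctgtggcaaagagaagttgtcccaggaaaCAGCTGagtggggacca
Myl2, second start: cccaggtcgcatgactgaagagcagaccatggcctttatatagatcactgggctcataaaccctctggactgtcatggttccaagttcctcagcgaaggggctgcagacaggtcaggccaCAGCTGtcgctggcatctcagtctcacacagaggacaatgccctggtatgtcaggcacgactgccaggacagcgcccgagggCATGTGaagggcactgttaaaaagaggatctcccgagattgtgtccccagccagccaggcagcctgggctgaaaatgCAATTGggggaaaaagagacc
Tnnt1: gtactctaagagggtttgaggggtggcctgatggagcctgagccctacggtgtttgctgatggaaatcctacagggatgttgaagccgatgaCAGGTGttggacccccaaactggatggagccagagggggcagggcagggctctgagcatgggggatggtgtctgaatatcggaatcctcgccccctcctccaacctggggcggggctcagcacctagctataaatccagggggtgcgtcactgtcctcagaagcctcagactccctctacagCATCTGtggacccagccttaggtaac

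An E-box was present in 22 of the 25 rising genes matched and in 25 of the 34 falling ones, where a gene counts if any of its promoters holds the motif. The share over all 27025 genes was 75.0%, and over all 32851 promoters 72.3%, so the motif is common in windows of this length. The letters CTA and TAG with any 4 bases between them were found in 1 rising gene matched, 0 falling ones and 4.2% of all genes. They are a looser form of the MEF2 site, whose 4 middle bases are A or T. The letters TATAAA occurred in 3 of the 25, in 2 of the 34 and in 15.7% of all genes. TATAAA lies 30 bases before the start of Tnnt1, as the offset -30 of its first base gives. These matches describe the letters only.

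**Figure D2:**
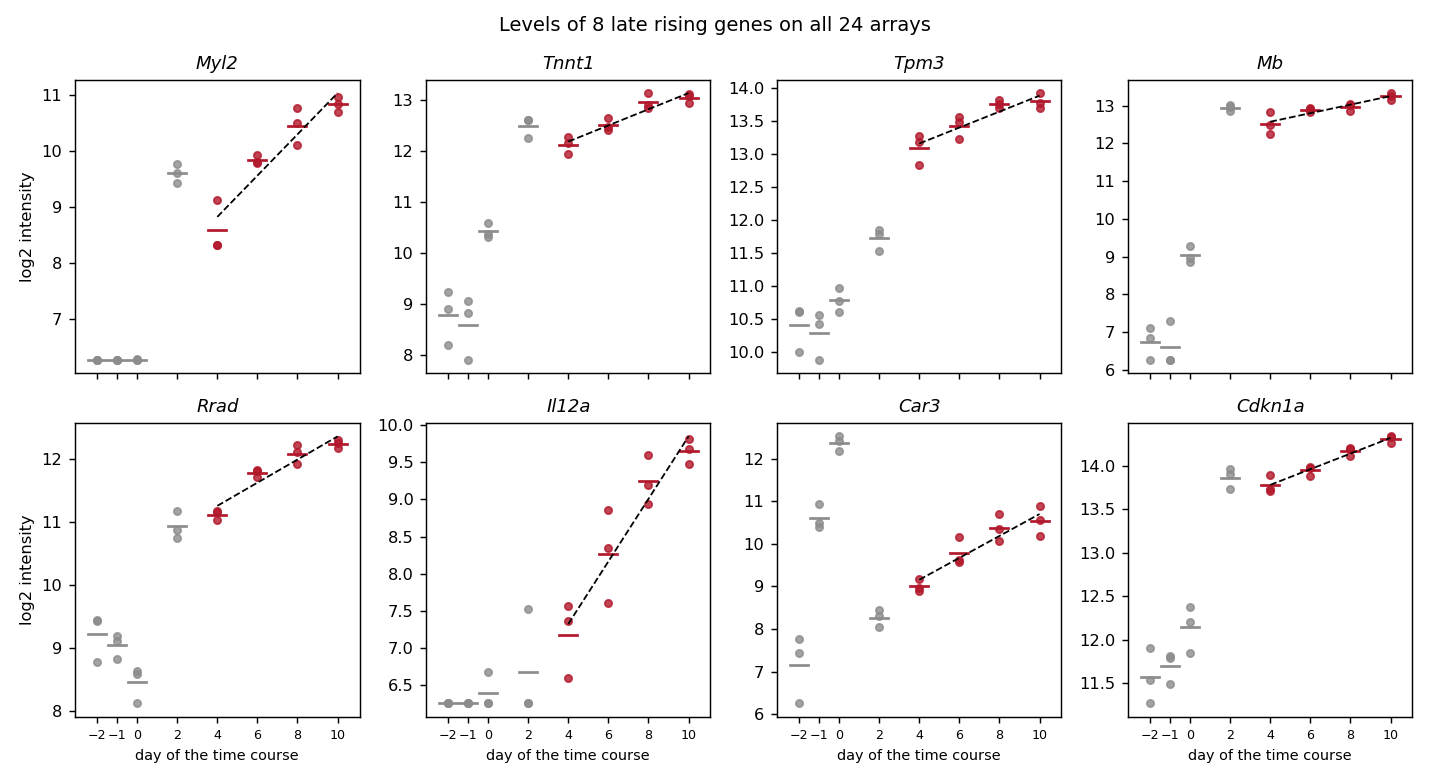
Log2 intensity (vertical axis) of 8 late rising genes by day of the time course (horizontal axis), with 1 point per array, a short line at the mean of each day, days 4 to 10 in red, earlier days in grey and the fitted line dashed. Myl2 and Mb rise from near the floor to day 2 and Myl2 dips on day 4 before its late gain, while Car3 falls from 12.37 on day 0 to 8.26 on day 2 and then climbs.

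Rrad and Slc4a3 rose as well, while 0 of 15 genes of excitation-contraction coupling were called, with a median slope of -0.001. Rrad, a small GTPase that restrains L-type calcium channels, read 11.16, 11.03 and 11.17 on day 4 and 11.81, 11.71 and 11.82 on day 6. It then read 11.92, 12.23 and 12.12 on day 8 and 12.30, 12.18 and 12.26 on day 10. Days 4, 6 and 8 did not overlap, days 8 and 10 did, and the gain was 1.11 ± 0.12 (2.15-fold, adjusted p = 0.00171). The first 2 days held 0.66 ± 0.09 of it, the only step of the gene that was called. Slc4a3, an anion exchanger of heart and brain, gained 0.80 ± 0.11 (1.74-fold, adjusted p = 0.00634), from a mean of 12.64 on day 4 to 13.40 on day 10.

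Eef1a2, the elongation factor form that takes over from its paralogue in adult muscle and neurons, read 9.79, 9.71 and 9.0 on day 4 and 9.62, 10.26 and 9.96 on day 6. On day 8 it read 10.45, 10.70 and 10.77 and on day 10 it read 10.93, 10.90 and 10.73. The first 2 days overlapped, the last 2 overlapped, and every array of the later pair lay above every array of the earlier pair. The gain was 1.42 ± 0.21 (2.68-fold, adjusted p = 0.00742). Car3, carbonic anhydrase of slow muscle and fat, read 9.18, 8.90 and 8.97 on day 4, 9.63, 9.58 and 10.15 on day 6, 10.07, 10.35 and 10.69 on day 8 and 10.55, 10.18 and 10.88 on day 10. Its gain of 1.54 ± 0.23 (2.91-fold, adjusted p = 0.00869) left it below its day 0 mean of 12.37. Itm2a, a membrane protein gene of differentiating muscle and cartilage, gained 1.20 ± 0.24 (2.30-fold, adjusted p = 0.0386), with 9.0, 9.87 and 9.51 on day 4 against 10.72, 10.82 and 10.52 on day 10. Cyb5r1, a cytochrome b5 reductase, gained 0.79 ± 0.10 (1.72-fold, limma adjusted p = 0.00192) on a probe set whose probes match a family of sequences. Of its other probe sets 1 had a slope of 0.01 and 1 of -0.219 per day, neither called.

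Cdkn1a and Gadd45b rose as well. Cdkn1a, the cyclin-dependent kinase inhibitor p21 that holds myotubes out of the cell cycle, read 13.73, 13.71 and 13.90 on day 4 and 13.89, 13.99 and 13.98 on day 6. It read 14.11, 14.20 and 14.21 on day 8 and 14.26, 14.34 and 14.33 on day 10. Days 6, 8 and 10 did not overlap one another, and the gain of 0.54 ± 0.07 (1.46-fold, adjusted p = 0.0026) was small and regular, with departure from a line at an unadjusted p of 0.841. Another Cdkn1a probe set, at a mean of 14.03 beside 14.05, had a slope of 0.067 per day that was not called (adjusted p = 0.388). Gadd45b, a stress-induced regulator of p38 signalling and growth arrest, read 9.30, 8.87 and 9.88 on day 4 and 10.73, 10.70 and 10.79 on day 10, with days 6 and 8 between them. The gain was 1.32 ± 0.20 (2.50-fold, limma adjusted p = 0.00984), on a probe set of the kind whose probes match a family of sequences. Another Gadd45b probe set, not of that kind and at nearly the same mean level, had a slope of 0.092 per day. It was not called (limma adjusted p = 0.359). Of 33 genes of the amino acid and integrated stress response 0 were called, and their median slope was 0.004.

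Ccnd3, the D-type cyclin that stays high in myotubes, gained 0.46 ± 0.09 (1.37-fold, adjusted p = 0.0404). With Cdkn1a and Gadd45b it made 3 rising and 0 falling of the 23 cyclins and cell cycle inhibitors measured, beside 0.309% and 0.35% of all probe sets. The median slope of the list was -0.003. Tk1, thymidine kinase of S phase, gained 0.74 ± 0.15 (1.66-fold, adjusted p = 0.0421) and was the 1 call among 40 genes of DNA replication and S phase, whose median slope was 0.025 with 25 above 0. Its day 10 mean of 11.27 was under its day 2 mean of 11.53. Mcm5 of the replicative helicase changed by 0.74 ± 0.18, which missed the threshold (limma adjusted p = 0.0829). None of the 37 genes of mitosis and G2/M was called, with a median slope of -0.014, and Top2a, topoisomerase of dividing cells, changed by -0.04 ± 0.27 (limma adjusted p = 0.975). The difference between the S phase and mitosis lists was not tested.

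Hspb8, a small heat shock protein that works with Bag3 in clearing damaged muscle proteins, gained 0.56 ± 0.11 (1.47-fold, adjusted p = 0.0329), the 1 call of 37 chaperone genes. Klf10, a zinc finger factor induced by TGF-beta, gained 0.53 ± 0.08 (1.45-fold, adjusted p = 0.0108) with every day 10 array above every array of days 4, 6 and 8. Bnip3, a mitochondrial protein of mitophagy and a known target of hypoxia-inducible factor, read 9.8, 10.44 and 10.0 on day 4, 10.69, 10.46 and 10.91 on day 6, 10.85, 10.49 and 11.05 on day 8 and 11.17, 10.91 and 11.40 on day 10. The gain was 1.01 ± 0.20 (2.01-fold, adjusted p = 0.0342), and neighbouring days overlapped from day 6 on.

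Bnip3 was the 1 call among 15 hypoxia response genes, whose median slope was 0.062 per day. In the 4 arrays of a single scan day it was 0.057, below those of the complement genes, 0.127, and of the neural markers, 0.087. Of the 15 hypoxia slopes 12 were above 0, with 13 under quantile normalization, 14 within the 4 arrays of a single scan day and 10 in the other arrays. Its promoter is shown for its CACGTG, at once an E-box and, on both strands, the core letters ACGTG that hypoxia-inducible factor binds. It lies on the minus strand at chr7:138909457-138909756, and capitals mark E-boxes as above.
Bnip3: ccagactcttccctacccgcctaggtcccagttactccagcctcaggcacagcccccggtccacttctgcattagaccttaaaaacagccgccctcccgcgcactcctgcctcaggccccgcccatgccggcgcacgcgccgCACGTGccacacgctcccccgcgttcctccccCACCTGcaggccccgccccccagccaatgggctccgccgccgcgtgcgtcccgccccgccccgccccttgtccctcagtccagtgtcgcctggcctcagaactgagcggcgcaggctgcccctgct
The letters ACGTG were found in 5 of the 25 rising genes matched, in 10 of the 34 falling ones and in 21.8% of all 27025 genes. The first E-box of Bnip3 begins at -108 and the second, CACCTG, at -76. Other members of the list had smaller fitted changes that were not called, among them Ldha, lactate dehydrogenase, with 0.34 ± 0.09 (limma adjusted p = 0.0983), and P4ha1, a collagen prolyl hydroxylase, with 0.42 ± 0.12 (limma adjusted p = 0.14). They are named here after their values were seen.

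Among secreted, surface and matrix genes, both directions occurred. Il12a, the p35 subunit of interleukin 12, had the highest fold of all, reading 6.60, 7.56 and 7.37 on day 4, 7.61, 8.35 and 8.85 on day 6, 9.60, 9.19 and 8.94 on day 8 and 9.47, 9.81 and 9.68 on day 10. The gain was 2.52 ± 0.36 (5.73-fold, adjusted p = 0.00639), from a level near the floor on day 0 (mean 6.40) and day 2 (mean 6.68). Sirpa, the receptor for CD47, gained 2.16 ± 0.44 (4.48-fold, adjusted p = 0.0421) with the probe set called, most of it after day 8, when its mean went from 7.65 to 9.37. Its 2 other probe sets had slopes of 0.158 and 0.098 per day and were not called. Ms4a4d, a gene of the tetraspan MS4A family, gained 1.69 ± 0.31 (3.23-fold, adjusted p = 0.0246) from a day 4 mean of 8.03.

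Mfap5, a protein of elastic microfibrils, read 9.76, 10.06 and 9.61 on day 4 and 11.09, 10.76 and 10.73 on day 6, its called step of 1.05 ± 0.14. It reached 11.33, 11.28 and 11.37 on day 10 for a gain of 1.43 ± 0.21 (2.69-fold, adjusted p = 0.00648), while a dimmer Mfap5 probe set had a slope of -0.094 (adjusted p = 0.567). Has2, which makes hyaluronan, gained 1.31 ± 0.22 (2.48-fold, adjusted p = 0.0175), with 9.71, 10.43 and 10.03 on day 4 and 11.51, 11.24 and 11.87 on day 10. Timp3, a matrix-bound inhibitor of metalloproteinases, gained 0.88 ± 0.16 (1.85-fold, adjusted p = 0.0273) and was the 1 call among 19 metalloproteinases and their inhibitors. Tmem45a, a membrane protein gene, gained 1.04 ± 0.20 and Rdh5, a retinol dehydrogenase gene, 1.01 ± 0.20 (adjusted p = 0.0301 and 0.0352). The probe set of Ctrb1, a digestive protease gene of the pancreas, gained 0.98 ± 0.20 (adjusted p = 0.041); it is of a kind designed with relaxed rules, and its signal was not checked against another probe set.

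Falling genes included several of the matrix. Col18a1, the basement membrane collagen from which endostatin is cut, was called on 3 probe sets. The first read 12.55, 12.32 and 12.37 on day 4, 11.76, 11.57 and 11.87 on day 6, 11.56, 11.42 and 11.45 on day 8 and 11.17, 11.38 and 11.03 on day 10. Every later day lay below its predecessor without overlap, and the loss was -1.17 ± 0.13 (2.26-fold, adjusted p = 0.00171). The other called probe sets lost 1.90-fold and 1.40-fold (limma adjusted p = 0.0175 and 0.0457). The smallest of these losses, 1.40-fold, was that of the brightest probe set, at a mean of 12.51 beside 11.7 for the first. A further one missed the threshold at a slope of -0.143 per day (limma adjusted p = 0.0878), and the dimmest had a slope of 0.144 (limma adjusted p = 0.377). Col6a3, a chain of the beaded-filament collagen of muscle, read 13.65, 13.85 and 13.72 on day 4, 12.98, 13.08 and 13.19 on day 6, 12.79, 12.66 and 12.50 on day 8 and 12.68, 12.45 and 12.96 on day 10. It lost -1.06 ± 0.17 (2.09-fold, adjusted p = 0.0122), with no further drop of the mean after day 8. These were the 2 calls among 28 collagens and collagen-processing enzymes, beside 0.309% rising and 0.35% falling of all probe sets. The median slope of that list was -0.004. The main fibrillar collagens were not called, Col1a1 with a change of 0.25 ± 0.18 (limma adjusted p = 0.638) and Col3a1 with -0.04 ± 0.15 (limma adjusted p = 0.953). Fbln1, a basement membrane glycoprotein, lost -0.62 ± 0.13 (1.54-fold, adjusted p = 0.0458). Another Fbln1 probe set, at a mean of 10.34 beside 10.96, had a slope of -0.028 per day that was not called (adjusted p = 0.727). Dimmer ones had slopes of -0.209 (adjusted p = 0.287) and 0.02 (adjusted p = 0.83). With Mfap5, Fbln1 made 1 falling and 1 rising of 40 matrix glycoproteins and proteoglycans.

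**Figure D3:**
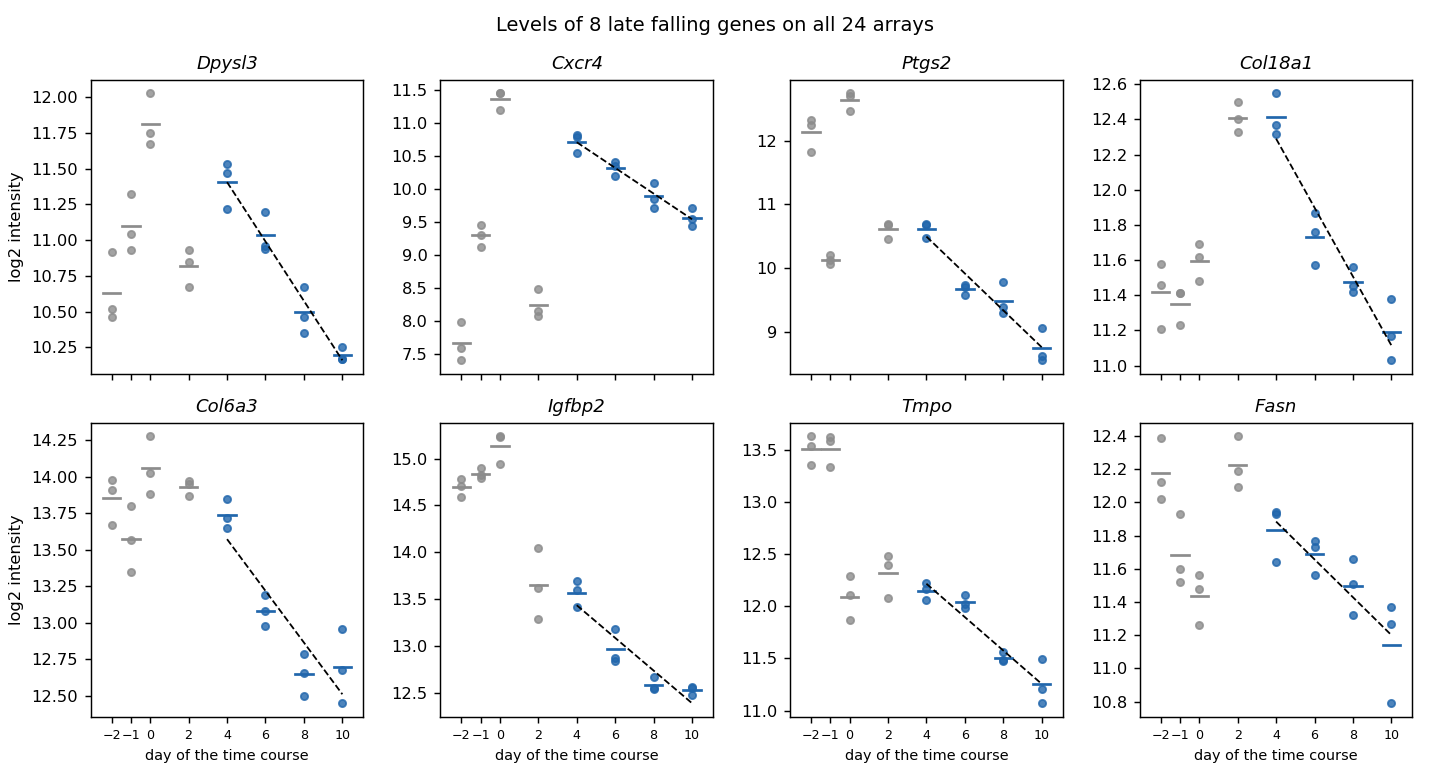
Log2 intensity (vertical axis) of 8 late falling genes by day of the time course (horizontal axis). Each array is 1 point, with a short line at the mean of each day. Days 4 to 10 are in blue, earlier days in grey and the fitted line is dashed. Col18a1 is shown with its most steeply falling probe set. Cxcr4 drops to 8.24 on day 2, is at 10.72 on day 4 and declines again, whereas Col18a1 and Fasn are higher on day 2 than on day 0 before they decline.

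Dpysl3 and Cxcr4 fell without overlap between the days. Dpysl3, a cytoskeletal collapsin-response protein best known from growing neurites, read 11.47, 11.22 and 11.53 on day 4, 10.94, 11.20 and 10.96 on day 6, 10.46, 10.35 and 10.67 on day 8 and 10.25, 10.17 and 10.17 on day 10. The loss of -1.25 ± 0.12 (2.38-fold) had the lowest adjusted p of all trends, 0.000683. Cxcr4, the receptor for the chemokine Cxcl12 that guides migrating muscle precursors, read 10.81, 10.79 and 10.54 on day 4 and 10.41, 10.20 and 10.35 on day 6. It read 10.09, 9.85 and 9.72 on day 8 and 9.71, 9.55 and 9.44 on day 10, lower on each later day. Its loss was -1.17 ± 0.14 (2.24-fold, adjusted p = 0.00183).

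Ptgs2, the inducible cyclooxygenase of prostaglandin synthesis, read 10.70, 10.47 and 10.67 on day 4 and 9.70, 9.57 and 9.73 on day 6. On day 8 it read 9.78, 9.38 and 9.29 and on day 10 it read 9.06, 8.55 and 8.62. Days 6 and 8 overlapped and the others did not, with a loss of -1.74 ± 0.21 (3.34-fold, adjusted p = 0.00192). It was the 1 call among 42 chemokine, cytokine and acute phase genes, whose median slope was -0.02 with 12 slopes above 0, and 0.01 within the 4 arrays of 1 scan day.

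The insulin-like growth factor axis drives myotube growth. The list that joined its genes with imprinted genes had 2 falling and 0 rising of 21 measured genes, beside 0.35% and 0.309% of all probe sets. Its median slope was -0.004. Igfbp2, a secreted binding protein of the axis, read 13.69, 13.60 and 13.42 on day 4, 12.84, 12.88 and 13.18 on day 6, 12.54, 12.55 and 12.67 on day 8 and 12.57, 12.55 and 12.48 on day 10. It lost -1.05 ± 0.13 (2.06-fold, adjusted p = 0.00258), with days 8 and 10 overlapping. Igf1r, the receptor, read 11.97, 12.07 and 12.04 on day 4, had means of 11.76 and 11.82 on days 6 and 8 and read 11.44, 11.11 and 11.12 on day 10. It lost -0.71 ± 0.13 (1.63-fold, adjusted p = 0.0301). Igf2, the growth factor that C2C12 cells secrete as they differentiate, changed by -0.06 ± 0.13 (limma adjusted p = 0.916). Gfra1, a receptor for glial cell line-derived neurotrophic factor, lost -1.04 ± 0.21 (2.06-fold, adjusted p = 0.0421).

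Hmga2, Sox4 and Snai2 also fell. Hmga2, a chromatin protein of embryonic and proliferating cells, read 10.32, 10.47 and 10.56 on day 4 and 9.30, 9.64 and 9.46 on day 6. It read 8.88, 9.06 and 8.64 on day 8, and its day 10 arrays were spread from 7.94 to 9.52. The loss was -1.77 ± 0.33 (3.42-fold, adjusted p = 0.0272), after a drop from 13.09 on day 0 to 10.29 on day 2. Sox4, a transcription factor of progenitor cells, lost -0.91 ± 0.14 (1.88-fold, adjusted p = 0.0108), and a probe set beside it had a slope of -0.13 that just missed the threshold (adjusted p = 0.0528). Snai2, the zinc finger repressor Slug that binds E-boxes, read 12.45, 12.99 and 12.55 on day 4 and 11.66, 11.82 and 11.91 on day 10, a loss of -0.82 ± 0.16 (1.77-fold, adjusted p = 0.0329). It was the 1 call among 16 antagonists of myogenic factors, of which 8 had slopes above 0 and whose median slope was 0.003.

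Tmpo, which encodes the lamina-associated LAP2 proteins of the nucleus, read 12.06, 12.16 and 12.22 on day 4, 11.98, 12.02 and 12.11 on day 6, 11.48, 11.47 and 11.56 on day 8 and 11.07, 11.49 and 11.21 on day 10. The arrays of days 8 and 10 lay below all of days 4 and 6 (loss -0.96 ± 0.11, 1.95-fold, adjusted p = 0.00183). Its 2 dimmer probe sets had slopes of -0.085 and 0.038 and were not called. Zbtb12, a zinc finger gene, lost -1.81 ± 0.29 (3.50-fold, adjusted p = 0.0122). Coro1c, an actin-binding coronin, lost -0.63 ± 0.09 (1.54-fold, adjusted p = 0.00869), and Ank, which exports pyrophosphate and ATP to the matrix, lost -0.67 ± 0.10 (1.59-fold, adjusted p = 0.00849). Capn6, a calpain without protease activity that stabilises microtubules, lost -1.22 ± 0.23 (2.33-fold, adjusted p = 0.0301), with a second probe set at a slope of -0.141 (adjusted p = 0.0576).

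Fasn, fatty acid synthase, read 11.94, 11.64 and 11.93 on day 4, 11.77, 11.73 and 11.56 on day 6, 11.32, 11.66 and 11.51 on day 8 and 11.27, 11.37 and 10.79 on day 10. Neighbouring days overlapped throughout, and the loss was -0.68 ± 0.14 (1.61-fold, adjusted p = 0.0421). It was the 1 call among 21 genes of cholesterol and fatty acid synthesis. All the same, 0 of the 21 slopes were above 0, beside 44.9% of the slopes of all probe sets. Under quantile normalization 1 was above 0, with 1 in the 4 arrays of a single scan day and 1 in the other arrays. The genes were read on the same arrays, so their slopes are not independent. The fall was not a steady one in most members, since most of the 21 had a higher mean on day 6 than on day 4. Hmgcs1 and Idi1, named after their values were seen, had means of 12.34 and 12.44 on day 4 and 12.65 and 12.66 on day 6. On day 8 they were at 12.21 and 12.07. The remaining members, Fasn and Elovl6 among them, were already lower on day 6 than on day 4. The median slope of the list was -0.049 per day, and -0.049 and -0.054 in the 4 arrays of a single scan day and in the other arrays. Uncalled members ranged from Elovl6, a fatty acid elongase, at -1.04 ± 0.27 (limma adjusted p = 0.0981) to Hsd17b7, of cholesterol synthesis, at -0.04 ± 0.58 (limma adjusted p = 0.986), both named after their values were seen.

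Some falling genes ended at the floor, so their loss is a lower bound or rests on dim values. Sntb2, a syntrophin of the dystrophin complex, read 8.07, 7.67 and 7.59 on day 4, 6.86, 7.40 and 7.09 on day 6, and the floor on 2 of 3 arrays of day 8 and all 3 of day 10. It was at least 2.86-fold lower on day 10 than on day 4 (adjusted p of the trend 0.0125). Tmeff2, a transmembrane protein with follistatin-like domains, fell from 8.28, 8.19 and 8.57 on day 4 to 6.64, the floor and 6.87 on day 10 (loss -1.72 ± 0.27, adjusted p = 0.00984). F3, tissue factor, and Ptprv, a receptor-type phosphatase, each had 1 array of day 8 and 2 of day 10 at the floor, with losses of -1.54 ± 0.29 and -1.43 ± 0.27 (adjusted p = 0.0301 and 0.0284). Other probe sets of Ptprv disagreed in direction and were not called: a brighter one had a slope of 0.095 (adjusted p = 0.702) and another one of -0.285 (adjusted p = 0.311).

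The falling probe set with the largest fold named Rpl19, a ribosomal protein gene, at 4.48-fold (adjusted p = 0.0301) and a mean log2 intensity of 8.44. A much brighter Rpl19 probe set, at 15.35, had a slope of 0.008 per day (adjusted p = 0.914), so the dim one does not stand for the gene as a whole, and 0 of 24 cytosolic ribosomal protein genes were called. Of the called genes, 25 had further probe sets, 35 of which were not called, and 25 of these 35 had a slope of the same sign as the called one.

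The myogenic regulators had no called trend. MyoD (Myod1) changed by 0.21 ± 0.11 (limma adjusted p = 0.492), myogenin (Myog) by 0.18 ± 0.16 (limma adjusted p = 0.716), Mef2c by 0.19 ± 0.26 (limma adjusted p = 0.852), Myf5 by -0.46 ± 0.29 (limma adjusted p = 0.598) and Myf6 by -0.34 ± 0.35 (limma adjusted p = 0.775). Skeletal actin (Acta1) changed by 0.22 ± 0.10, desmin (Des) by 0.02 ± 0.14 and muscle creatine kinase (Ckm, on a dim probe set of the family kind) by 0.02 ± 0.18 (limma adjusted p = 0.455, 0.975 and 0.982). Chrng, the fetal subunit of the acetylcholine receptor that innervation silences, changed by 0.44 ± 0.10 (limma adjusted p = 0.0646), and Chrna1, its alpha subunit, by 0.23 ± 0.10 (limma adjusted p = 0.392), neither past the threshold. Cyclin D1 (Ccnd1), Id1 and Id3, which hold myoblasts undifferentiated, were not called either (limma adjusted p = 0.514, 0.443 and 0.841). Of the 35 genes fixed for naming 32 were measured.

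**Figure D4:**
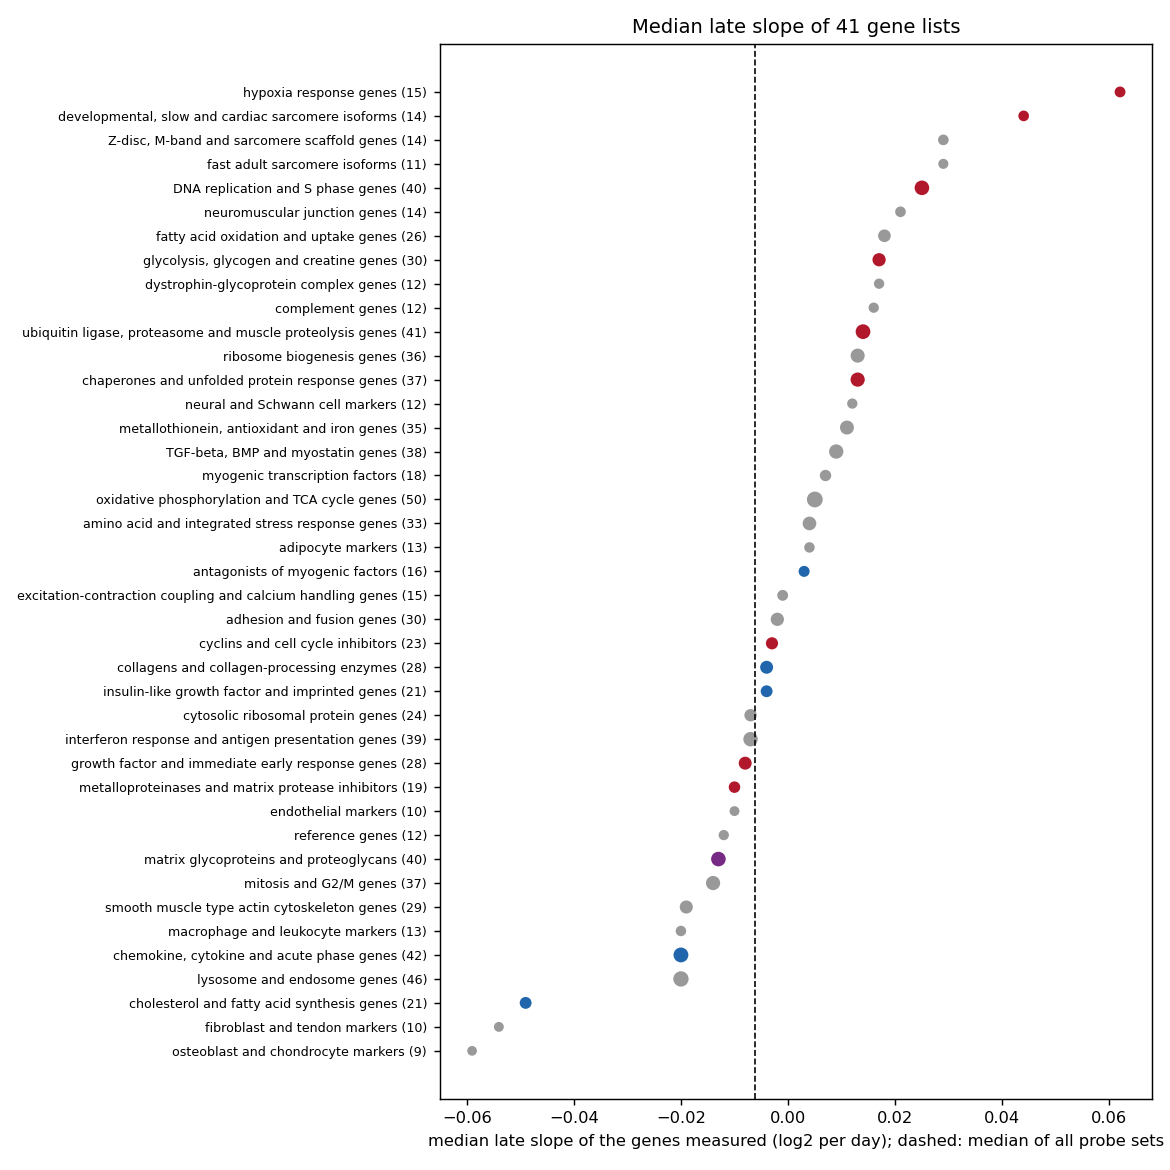
Median slope over days 4 to 10 in log2 units per day (horizontal axis) of the measured genes of 41 lists, with the number measured in brackets and in the size of the point; red lists held only rising calls, blue only falling calls, purple both and grey none, and the dashed line is the median of all probe sets, -0.0062. The hypoxia and the slow sarcomere lists lie farthest right at 0.062 and 0.044, and the synthesis of cholesterol and fatty acids at -0.049 is the lowest of the lists with a call.

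Over all lists, 980 of 1195 genes were measured and 26 of the 41 lists held no called gene. Beside the lists given above, Mb was the 1 call among 30 genes of glycolysis, glycogen and creatine. Klf10 was the 1 call among 28 growth factor and immediate early response genes. Bnip3 was the 1 call among 41 ubiquitin ligase, proteasome and muscle proteolysis genes. Lists with no call included excitation-contraction coupling (15 genes measured), the neuromuscular junction (14), the dystrophin-glycoprotein complex (12), oxidative phosphorylation and the TCA cycle (50) and fatty acid oxidation (26). Their median slopes lay between -0.001 and 0.021 per day. The lists for the markers of bone and fibroblast cells had medians of -0.059 and -0.054 on 9 and 10 genes, with 0 calls. The bone median changed sign, to 0.025, with a higher floor.

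On arrays that did not enter the line, many of the late genes had already moved. Between day 0 and day 2, 7.69% of all probe sets were called higher and 7.37% lower by limma. Of the 37 late rising probe sets 21 (56.8%) were higher on day 2 and 5 (13.5%) lower, and of the 42 late falling ones 4 (9.5%) were higher and 21 (50%) lower. Mb rose by 3.91 ± 0.31 at this step (limma adjusted p = 3.4e-05), Myl2 by 3.33 ± 0.08 (limma adjusted p = 2.82e-08) and Rrad by 2.48 ± 0.22 (limma adjusted p = 7.12e-05), on 3 and 3 arrays. Cxcr4 fell by 3.12 ± 0.18 (limma adjusted p = 6.79e-06) and Ptgs2 fell by 2.03 ± 0.13 (limma adjusted p = 1.28e-05).

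Against this pattern, Car3 (fell by 4.11 ± 0.34, limma adjusted p = 4.73e-05), Timp3, Has2 and Klf10 were lower on day 2 than on day 0 and rose later. Col18a1 (0.81 ± 0.10 on its most steeply falling probe set, limma adjusted p = 0.000517) and Fasn (0.79 ± 0.14, limma adjusted p = 0.00467) were higher on day 2 and fell later. The step from day 2 to day 4 did not always lead into the line, since the day 4 mean was above the day 2 mean for 22 of the 37 rising and for 31 of the 42 falling probe sets. Day 10 was above all the earlier daily means (days -2 to 2) for 31 of the rising probe sets, and below all of them for 21 of the falling ones. The other 21 falling probe sets ended within their earlier range.

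**Figure D5:**
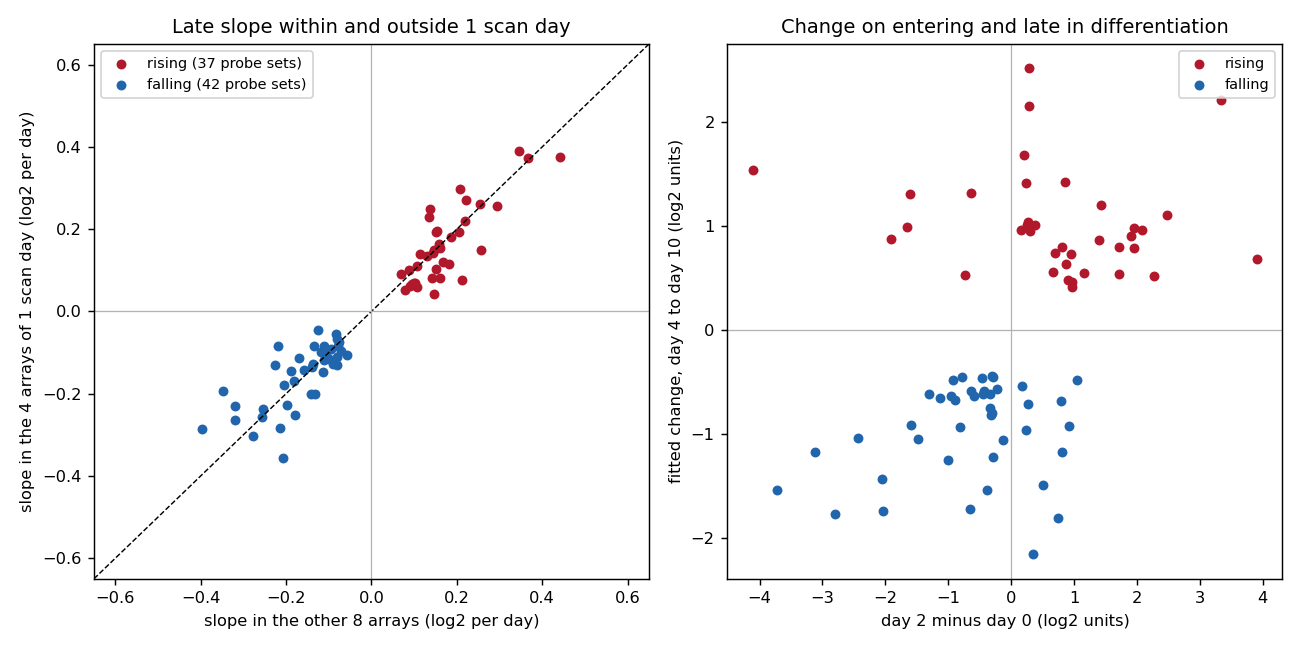
Left, slope over days 4 to 10 (log2 units per day) of the 79 called probe sets in the 4 arrays of 1 scan day (vertical axis) against the other 8 arrays (horizontal axis), with equality dashed; right, fitted change from day 4 to day 10 (vertical axis) against the change from day 0 to day 2 (horizontal axis), both in log2 units, rising probe sets in red and falling in blue. All 79 keep their sign on both axes of the left chart, whose arrays are those the calls were made with. On the right, 5 rising and 4 falling probe sets went the opposite way, past the threshold, at the earlier step.

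The array headers gave 4 chip lots and 6 scan days for the 12 arrays, and 1 scan day held 1 array of each of days 4, 6, 8 and 10. Within those 4 arrays the slope had the same sign as over all 12 for 37 of 37 rising and 42 of 42 falling probe sets, with a median ratio of 0.98 and 0.97 to the slope over all. In the other 8 arrays the signs also held for all 79, with ratios of 1.01 and 1.02. The calls were made with these same arrays, which favours the same sign in both parts from the outset. For all 11329 probe sets with a slope in both sets 52.8% had the same sign. That share is of probe sets not chosen by their slope, so it is no measure for the called ones. Dpysl3 had slopes of -0.228 and -0.198 per day in the single scan day and in the other arrays, Myl2 0.374 and 0.367, and Mb 0.043 and 0.147. With the 8 arrays alone 3 falling probe sets were called (Dpysl3, Cxcr4 and Ptgs2) and 0 rising, from 2 arrays on each day. With scan day as a fixed factor 0 were called at 5 residual degrees of freedom, and with chip lot 11 rising and 21 falling, 10 and 15 of them from the original calls.

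Leaving out 1 array at a time gave between 13 and 39 rising and between 11 and 42 falling calls. Day 4 decided most: without its replicate 2 the counts were 13 and 12, without replicate 3 they were 16 and 11, and without replicate 1 they were 23 and 25. Without replicate 1 of day 10 they were 21 and 25. Calls that stood without each of the 12 arrays in turn numbered 12 rising and 10 falling. Myl2, Tnnt1, Rrad, Cdkn1a, Il12a, Car3, Eef1a2, Mfap5, Gadd45b, Slc4a3, Cyb5r1 and Klf10 were the rising ones. Dpysl3, Cxcr4, Ptgs2, Tmpo, Igfbp2, Coro1c, Ank, Sntb2, Tmeff2 and 1 probe set of Col18a1 were the falling ones. Other named genes were less stable. Fasn, Fbln1, Gfra1, Ankrd10 and the brightest probe set of Col18a1 kept their call in only 1 of the 12 such fits each. Tk1, F2r and Sh3bgr kept it in 2, Ccnd3 and Snai2 in 3, and Sirpa, Itm2a, Bnip3 and Ctrb1 in 4. Without the 2 arrays that stood farthest apart, 13 rising and 21 falling probe sets were called.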

How the data were processed

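Total RNA of C2C12 cells was measured on 24 arrays of the MG_U74Av2 design, per the file headers. The deposited values were linear intensities, 1 per probe set and array; how the authors summarised the probes is not given in the sources used here. Their nearly equal trimmed means (mean without the lowest and highest 2%) were left as they were. The deposited run settings, read as text and scored as other than expression, gave chip lots and scan days.

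Of 12488 probe sets, 66 controls were left out and 12422 kept. The platform annotation gave 1 gene for 10833, several for 396 and none for 1193, and 10817 symbols matched RefSeq by gene identifier. Intensities of all 24 arrays were raised to their 20th percentile, 76.8, and converted to log2. The 429 probe sets at this floor on all 12 late arrays were left out, so 11993 were fitted. Arrays have no counting depth, and their number, 3 a day, limits the precision.

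The day number entered limma 3.58.1 (R 4.3.3) as a numeric term (lmFit, then eBayes with an intensity-dependent prior variance, 10 residual and 3.72 prior degrees of freedom). Steps and departure from a line came from a fit with the 4 days as groups, and day 2 minus day 0 from the 12 earlier arrays alone. The fit was tested on simulated data. A gene in a list was represented by its brightest probe set naming only that gene. Python 3.11.15 and matplotlib 3.10.9 drew the figures.

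Named were the 15 rising and 15 falling genes with the largest slopes, the 10 of each direction with the smallest adjusted p and no called step, up to 4 called genes of each list, and 35 fixed genes. The arrays, lists and rules were chosen with earlier results of these data known. Alternatives tried were quantile normalization, other floors, a pseudocount, a filter on dim probe sets, a flat variance prior, chip lot, scan day or replicate number as blocks, another spread or time scale, and arrays or days left out.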

Additional observations from a re-analysis of the deposited data

How the results depend on the processing

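Slopes kept their sign under every setting in which either fit called the gene, for all 110 probe sets followed, but the number called depended on the setting. Rising and falling counts (37 and 42 as reported) became 72 and 72 with a filter on dim probe sets, 17 and 24 without a trend in the variance prior, 87 and 173 with the spread taken from all 24 arrays, and 11 and 21 with chip lot as a fixed factor. They were 0 and 0 with scan day as a fixed factor, in the largest chip lot alone and in the 4 arrays of 1 scan day, settings that leave 5, 3 and 2 residual degrees of freedom. They were 0 and 3 in the other 8 arrays, 0 and 1 without all arrays of day 4, 7 and 15 without those of day 10, and 13 and 21 without the 2 arrays farthest from the rest. The sets of 4 and of 8 arrays and the omission of these 2 arrays were chosen after seeing the data. Leaving out 1 array at a time gave 13 to 39 and 11 to 42. Beyond fewer arrays and fewer probe sets, the cause of these shifts was not tested. With quantile normalization, a floor at the 5th or the 40th percentile, a pseudocount, the logarithm of the day and scan day as a random block (estimated correlation 0.018) both counts were within 1.5 times the reported ones. Of the 79 calls, 79 were kept with scan day as a random block, 67 with quantile normalization, 61 with the replicate block and 25 with chip lot as a fixed factor.

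The 7 calls from day 4 to day 6 became 0 with a floor at the 40th percentile, chip lot or scan day as a fixed factor, the largest lot alone, the replicate block or the 2 arrays left out, 3 without the trend in the prior, 40 with the spread of all 24 arrays, and 0 to 10 with single arrays left out. That wider spread also gave 3 calls from day 6 to day 8 and 23 departures from a line, where 0 were reported, and Myh7, Chrng and Mcm5, which missed the threshold, passed it under at least 1 setting. Arrays of the same replicate number correlated at -0.043 to 0.286 in their deviations from the daily means (mean 0.061, 18 pairs), and arrays of different numbers at -0.21 to 0.128 (mean -0.03, 36 pairs). As some of the former were near 0, the numbers were not taken to pair the samples. The replicate block gave 35 rising and 34 falling calls.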

Other observations

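The rule for naming left out 9 rising genes, which are named here after their values were seen. Several are muscle genes. Camk2b, a calcium/calmodulin-dependent kinase subunit, gained 1.93-fold over the 6 days (limma adjusted p = 0.0246) and read 10.46, 10.56 and 10.62 on day 4 against 11.45, 11.45 and 11.20 on day 10. Its day 0 and day 2 means were 7.63 and 7.93. Adssl1, the muscle form of adenylosuccinate synthase, gained 1.43-fold (limma adjusted p = 0.0227), and Mapk12, the p38 gamma kinase prominent in skeletal muscle, 1.33-fold (limma adjusted p = 0.0246). Sh3bgr, a gene of heart and skeletal muscle, gained 1.46-fold (limma adjusted p = 0.0421). Tmem38b, a gene of an intracellular potassium channel that is not particular to muscle, gained 1.40-fold (limma adjusted p = 0.0213). Adssl1 was the 1 rising gene whose promoter window held CTA and TAG with 4 bases between them. Its letters, CTAGTCCTAG, have middle bases that are not those of a MEF2 site. Vps26b of the retromer, the cytokine gene Tnfsf9, Rgs14 and Ankrd10 gained between 1.56-fold and 1.94-fold.

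Outside the rule the falling side held, among others, cytoskeletal and membrane genes of modest slope. Emp1, an epithelial membrane protein gene, lost 1.45-fold (limma adjusted p = 0.0213), Gsn, the actin-severing gelsolin, lost 1.39-fold (limma adjusted p = 0.0359) and F2r, the thrombin receptor, lost 1.5-fold (limma adjusted p = 0.0499). Idh1, cytosolic isocitrate dehydrogenase, lost 1.74-fold (limma adjusted p = 0.0271), with 11.40, 11.50 and 11.42 on day 4 against 10.69, 10.72 and 10.82 on day 10. Tcf7l1, a transcription factor of the Wnt pathway, lost 1.91-fold (limma adjusted p = 0.035).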
